A study of Mus musculus with 16 samples.

Results

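The comparison described here is the exposure to cigarette smoke averaged over both sorted cell fractions of the mouse olfactory mucosa. For each pool of mice, the GFP+ and the GFP- array were averaged gene by gene, and the 4 smoke pools were compared with the 4 vehicle pools. All 16 arrays of the series entered as 8 pool means, and 19505 genes were tested. The animals were S100a5-tauGFP mice of both sexes, 7 to 12 weeks old, in which green fluorescent protein (GFP) reports the expression of S100a5. All 24 mice, vehicle animals included, carried this reporter and sat singly for 40 h in a chamber flushed with clean air at 3.1 L per min. Starting 26 h into that stay, smoke mice were given 10 s pulses of cigarette smoke odour every 20 min, and vehicle mice pulses of filtered air on the same schedule. Each replicate is a pool of 3 mice, split by flow cytometry into GFP+ and GFP- cells and measured on Clariom S arrays from 50 to 100 ng of RNA. The sort itself reads S100a5, so a GFP- fraction holds neurons with little reporter as well as the other cells of the mucosa.

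Oxidants and reactive compounds in smoke are sensed in many cells by the KEAP1 and NRF2 system. KEAP1 holds the transcription factor NRF2 in check, and once released NRF2 binds antioxidant response elements beside genes of detoxification, glutathione and thioredoxin metabolism and NADPH supply. Pirin, the product of Pir, is an iron-binding nuclear protein and a known NRF2 target that is also raised in the airway epithelium of smokers. Each mature olfactory sensory neuron expresses a single odorant receptor gene, and S100a5, a calcium-binding protein, is made in these neurons after activity. A response common to both fractions is one that the reporter gate did not separate.

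On their log2 scale the deposited values spanned 2.29 to 18.6. A scanner with 16 bits cannot exceed 16 on that scale, yet 0.946% of the values did. Differences of very bright genes, S100a5, Nqo1 and Omp among them, may therefore be mis-scaled. Omp, the marker of mature olfactory neurons, lay between 18.16 and 18.25 in all 8 pool means and differed by 0.03 between exposures (SE 0.0747, exact two-sided permutation p = 0.200). The mature neuron list lay at a mean of 16.03 to 16.16 in smoke pools and 15.95 to 16.10 in vehicle pools. Pool 1 of each exposure stood apart in the Y-linked gene Uty, at 5.05 and 3.85 against 10.84 to 11.84 in the other pools. The fractions of smoke pool 1 were unlike, with a mean of the 3 sex-linked genes of 4.26 in GFP+ and 6.57 in GFP- cells. In vehicle pool 1 that mean was 4.13 and 4.53. The cause was not tested. Smoke pools 2 and 4 had the highest mean of the sustentacular (supporting cell) list, 11.54 and 11.85, against 11.16 to 11.47 in the other 6 pools. The 95th percentile of the vomeronasal receptors, a family whose neurons lie in another organ, was 6.15 to 6.47 per pool mean and is used below as the level of a gene with little signal. No separate level was computed for a single fraction. The mean of the vomeronasal list was 4.69 to 4.91 in GFP- arrays and 4.92 to 5.11 in GFP+ arrays. Values of GFP- arrays are therefore set against this level only roughly. In RNA from mixed cells, fewer cells of a type and less RNA per cell cannot be told apart.

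The genes that passed in the averaged comparison were 2 receptors that detect odours. By limma with Benjamini-Hochberg adjustment, 2 genes rose in smoke pools (0.0103% of those tested) and 0 fell (0%), at an adjusted p of at most 0.05. The genes that rose were Olfr1278 (by 1.77) and Olfr837 (by 0.86). At an unadjusted p under 0.05 there were 453 genes higher (2.32%) and 349 lower (1.79%), 802 in all (4.11%). Pool means of the exposures did not overlap for 257 genes higher in smoke (1.32%) and 185 lower (0.948%). Within fractions the corresponding shares of non-overlap, higher and lower, were 1.66% and 1.34% in GFP+ arrays and 1.43% and 1.3% in GFP- arrays. The median absolute difference over all genes was 0.0762, and 21 genes differed by at least 1.

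**Figure D1:**
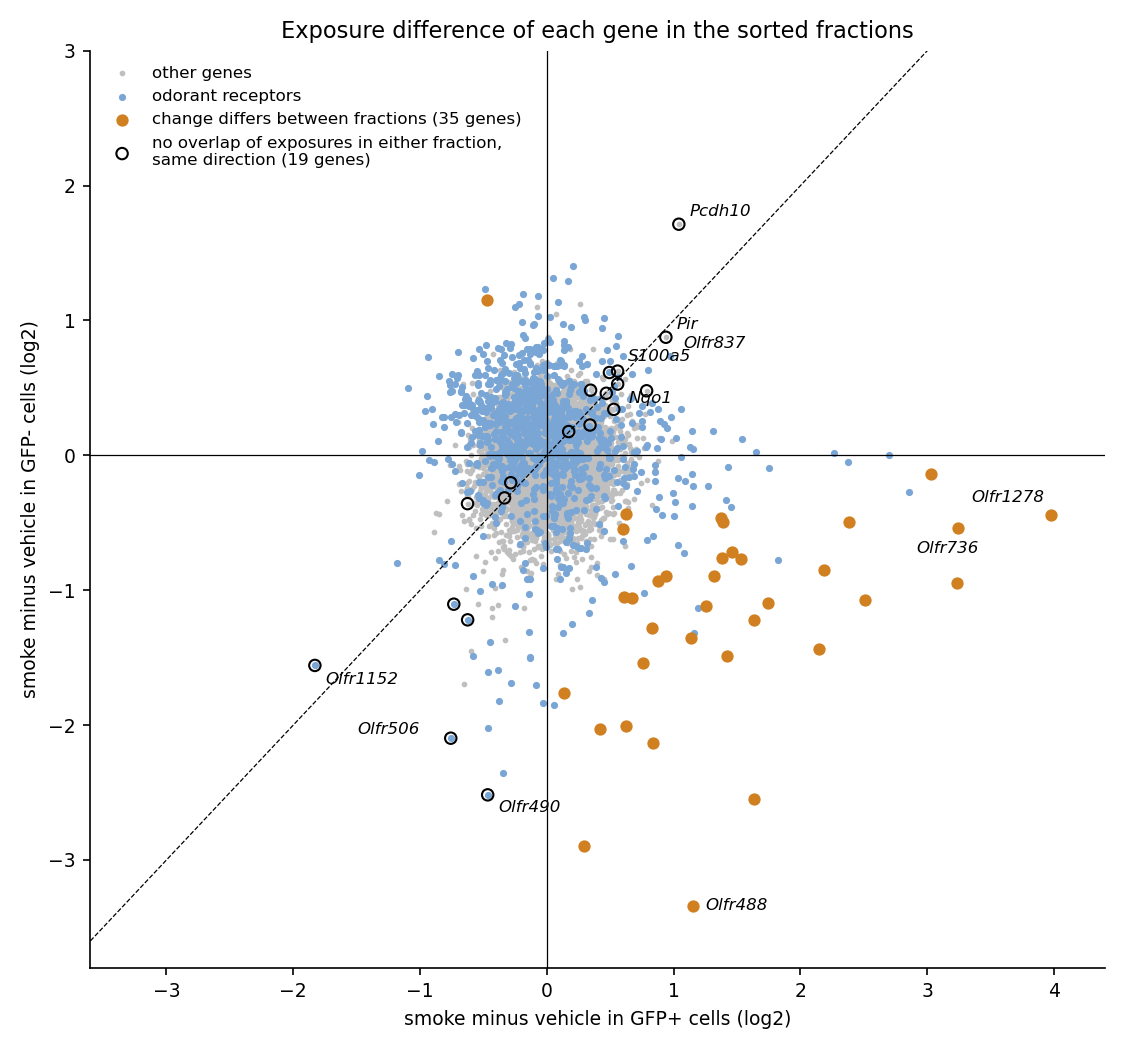
Each point is 1 of 19505 genes, with its smoke minus vehicle difference in GFP+ arrays on the horizontal axis and in GFP- arrays on the vertical axis, both log2; the dashed line marks equal differences. Circled are the 19 genes whose exposures did not overlap in either fraction and differed in the same direction, and orange marks the 35 genes whose difference was unequal in the fractions. Pir, Nqo1 and S100a5 lie near the dashed line, whereas Olfr1278 lies far to the right of it.

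Pir had the smallest p among genes outside the receptor families, and its difference was of like size in both fractions. Its pool means were 9.96, 9.87, 10.08 and 10.21 in smoke and 8.91, 9.23, 9.06 and 9.29 in vehicle mice. Every smoke pool lay above every vehicle pool. The difference was 0.91 (SE 0.114, 95% interval 0.66 to 1.16), a 1.88-fold change on the array scale, with an adjusted p of 0.0555 by limma and an exact two-sided permutation p of 0.0286, the smallest that 4 pools against 4 can give. In GFP+ cells the arrays read 10.36, 10.42, 10.64 and 10.52 after smoke and 9.30, 9.55, 9.62 and 9.71 after vehicle. In GFP- cells they read 9.56, 9.32, 9.51 and 9.91 after smoke and 8.51, 8.90, 8.50 and 8.87 after vehicle. Neither fraction showed any overlap between exposures.

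Taken fraction by fraction, with the spread estimated over 4 groups of 4 arrays, Pir rose in both. The rise was 0.94 in GFP+ cells (SE 0.142, adjusted p = 0.00890) and 0.88 in GFP- cells (SE 0.142, adjusted p = 0.0152). The fractions' arrays are separate but come from the same mice. Of the 20 genes that rose (0.103%) and the 1 that fell (0.00513%) in GFP+ arrays, and the 3 that rose (0.0154%) and 22 that fell (0.113%) in GFP- arrays, Pir was the only one to pass in both (1 gene, 0.00513%). The difference between the fractions' changes was 0.06 (95% interval -0.33 to 0.45, adjusted p = 0.967), so an inequality larger than 0.45 lies outside the interval. Pir passed in the fit of 16 arrays with the pool as a random block (adjusted p = 0.00356). That fit took 1 correlation, 0.12, between the fractions of a pool for all genes, so it counted them as nearly separate replicates. With single pools left out of the pool-mean fit, the adjusted p of Pir ran from 0.0625 to 0.133.

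The RefSeq promoter windows (mouse build GRCm38.p6) of Pir and of other NRF2 targets described below are shown because the NRF2 binding element can be read in them. The motif marked is TGACNNNGC, the core of the antioxidant response element, searched on both strands, and capitals mark the match. A second motif, GCGTG, the core of the xenobiotic response element, was searched likewise and is not marked. Only bases before the annotated start are printed, except that the Me1 window runs 3 bases past it so as to hold its match.
Pir promoter, chrX:164269181-164269430, plus strand: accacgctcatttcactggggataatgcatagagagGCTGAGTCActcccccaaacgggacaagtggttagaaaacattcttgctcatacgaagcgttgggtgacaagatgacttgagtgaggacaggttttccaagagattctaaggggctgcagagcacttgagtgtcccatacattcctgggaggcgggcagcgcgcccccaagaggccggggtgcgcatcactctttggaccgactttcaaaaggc
Me1 promoter, chr9:86695912-86696164, minus strand: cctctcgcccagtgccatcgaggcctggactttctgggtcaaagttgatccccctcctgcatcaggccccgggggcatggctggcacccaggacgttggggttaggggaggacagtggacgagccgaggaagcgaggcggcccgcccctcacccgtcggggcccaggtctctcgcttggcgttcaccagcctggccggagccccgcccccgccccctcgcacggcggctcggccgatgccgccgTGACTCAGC
Txnrd1 promoter, chr10:82858956-82859205, plus strand: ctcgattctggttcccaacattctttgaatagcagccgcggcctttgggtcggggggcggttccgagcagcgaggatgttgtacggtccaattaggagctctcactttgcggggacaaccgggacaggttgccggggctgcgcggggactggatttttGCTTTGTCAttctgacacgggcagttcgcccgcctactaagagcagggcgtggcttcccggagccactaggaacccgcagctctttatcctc
Counted from the start, with negative positions before it, the Pir match shown lies at -214 to -206 and reads TGACTCAGC on the opposite strand. A second Pir match, TGACTCCGC on the opposite strand at 19 to 27, lies past the printed bases. Me1 holds the letters TGACTCAGC on its own strand, across the start of 1 of its 2 annotated windows. In Txnrd1 the match lies at -92 to -84 in 1 of 3 annotated windows and reads TGACAAAGC on the opposite strand. The TGACNNNGC motif was present within the 300-base windows (250 before and 50 after the start) of 2354 of the 15691 measured genes with a window (15%). It was present in 11 of 29 genes of the NRF2 list (37.9%) and in 66 of 925 odorant receptors (7.14%). Nqo1 had no match to either motif in its window. The GCGTG motif was present in 6767 of the 15691 genes (43.1%). It was in 17 of 29 genes of the NRF2 list (58.6%) and in 30 of 925 odorant receptors (3.24%). In the printed bases it lay at -248 to -244 in Pir and at -45 to -41 in Txnrd1. A match is a description of the letters only.

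Nqo1, Me1 and Txnrd1 behaved like Pir in direction, at smaller size, and none of them passed over all genes. Nqo1, a quinone reductase, had pool means of 16.06, 16.03, 16.20 and 16.31 in smoke and 15.62, 15.67, 15.36 and 15.79 in vehicle. Smoke pools lay above vehicle pools without overlap, and this also held in each fraction. The difference was 0.54 (SE 0.113, 95% interval 0.29 to 0.79, adjusted p = 0.318, exact two-sided permutation p = 0.0286). It was 0.56 in GFP+ and 0.53 in GFP- cells, and the fractions differed by 0.03 (95% interval -0.28 to 0.34). Any gene whose pool means do not overlap has this permutation p, so for Pir, Nqo1 and S100a5 it adds nothing to non-overlap. With values above 16 set to 16 the Nqo1 difference was 0.38.

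Me1, the cytosolic malic enzyme that makes NADPH, had pool means of 10.36, 10.34, 10.18 and 10.29 in smoke and 9.97, 9.73, 9.66 and 9.73 in vehicle. The pools did not overlap, at a difference of 0.52 (SE 0.0950, adjusted p = 0.211). In GFP+ arrays Me1 differed by 0.59 without overlap, and in GFP- arrays by 0.45 with overlap. Txnrd1, cytosolic thioredoxin reductase, had pool means of 13.59, 13.63, 13.62 and 13.53 in smoke and 13.28, 13.33, 13.33 and 13.30 in vehicle. Its spread within each exposure was small (SD 0.0461 and 0.0239), its difference was 0.28 (SE 0.0762, adjusted p = 0.773), and its exposures did not overlap in either fraction.

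**Figure D2:**
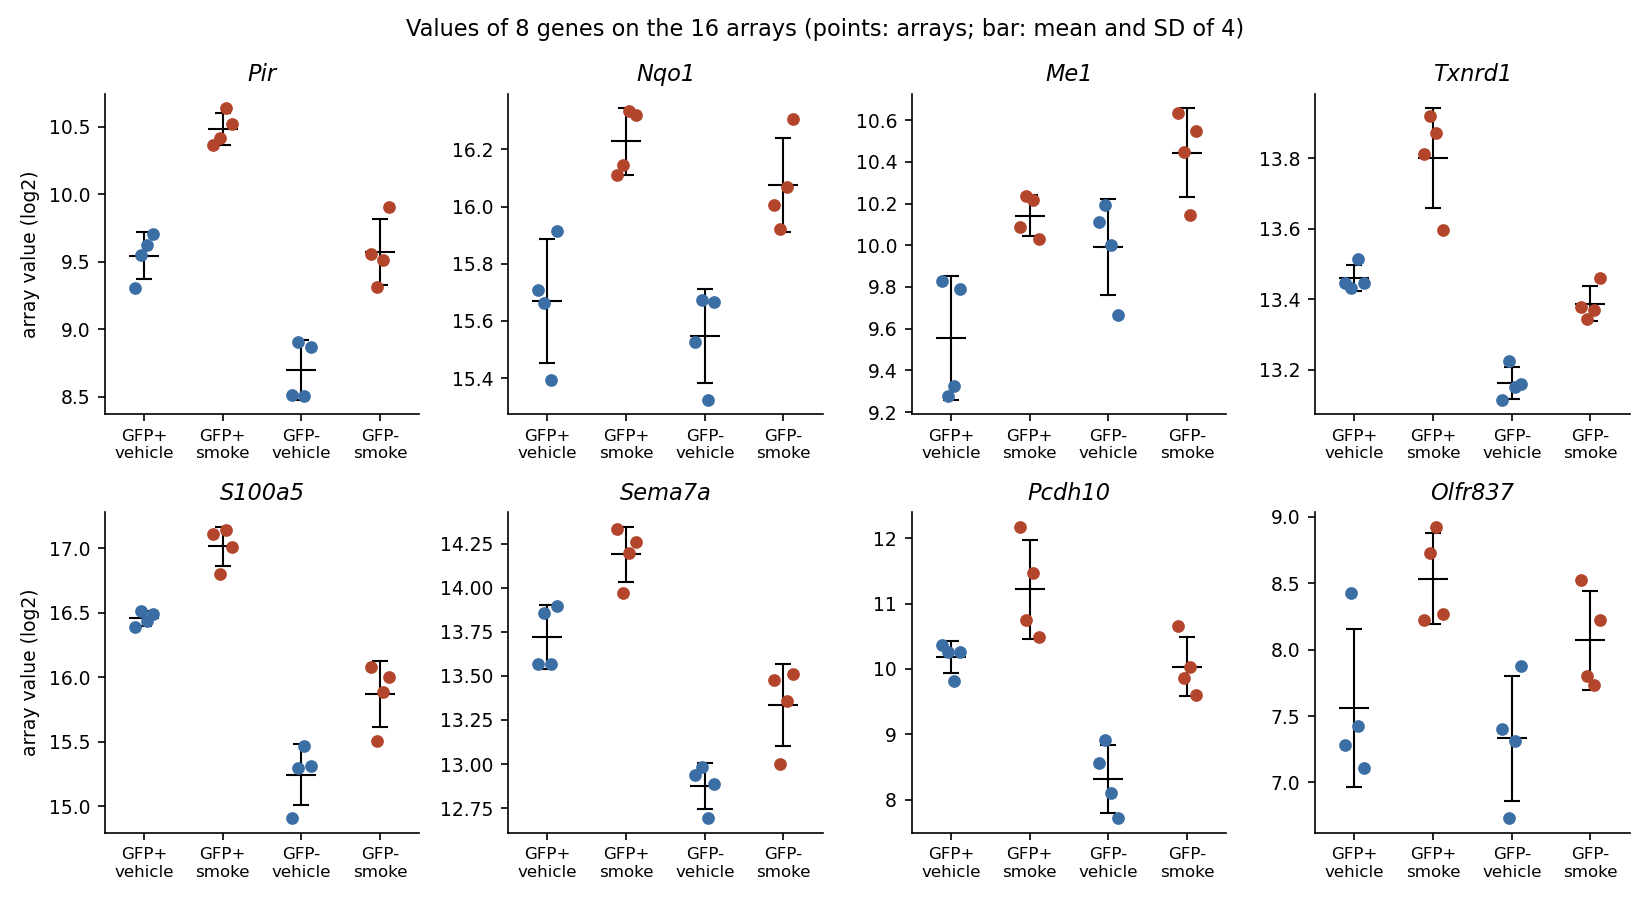
Array values (log2) of 8 genes on all 16 arrays, by fraction and exposure; points are arrays, and the bar is the mean with the SD of 4 arrays. Exposures do not overlap within either fraction for Pir, Nqo1, Txnrd1, S100a5, Sema7a and Pcdh10, while the GFP- arrays of Me1 and both fractions of Olfr837 overlap.

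The wider NRF2 list held 35 measured genes of 38 listed, with Pir counted apart from it. None passed over all genes. At an unadjusted p under 0.05, 6 were higher and 0 lower (17.1% higher, against 2.32% of all genes). These 6 were Nqo1, Me1, Txnrd1, Srxn1, Pgd and Gclc. Of the 35, 25 had a difference above 0 (71.4%, against 51.3% of all genes), and the list's median was 0.07, against 0.00 over all genes. Srxn1, sulfiredoxin, which restores peroxiredoxins, differed by 0.32 (SE 0.0937, adjusted p = 0.979), at 0.40 in GFP+ and 0.23 in GFP- cells. Pgd, an enzyme of the pentose phosphate pathway, differed by 0.37 (SE 0.105, adjusted p = 0.883), with 0.61 in GFP+ and 0.12 in GFP- cells. Gclc, the catalytic subunit of the enzyme that starts glutathione synthesis, differed by 0.25 (SE 0.106).

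Among other well-known NRF2 targets, Gclm and Hmox1 sat near 0 in the same comparison, and Slc7a11 was below 0 with a wide SE. Gclm, the partner subunit of Gclc, differed by 0.09 (SE 0.0866), and Hmox1, haem oxygenase, by 0.03 (SE 0.106). Slc7a11, the cystine carrier, differed by -0.18 (SE 0.176). The median of the list was 0.17 in GFP+ cells and 0.03 in GFP- cells, a difference that was not tested.

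**Figure D3:**
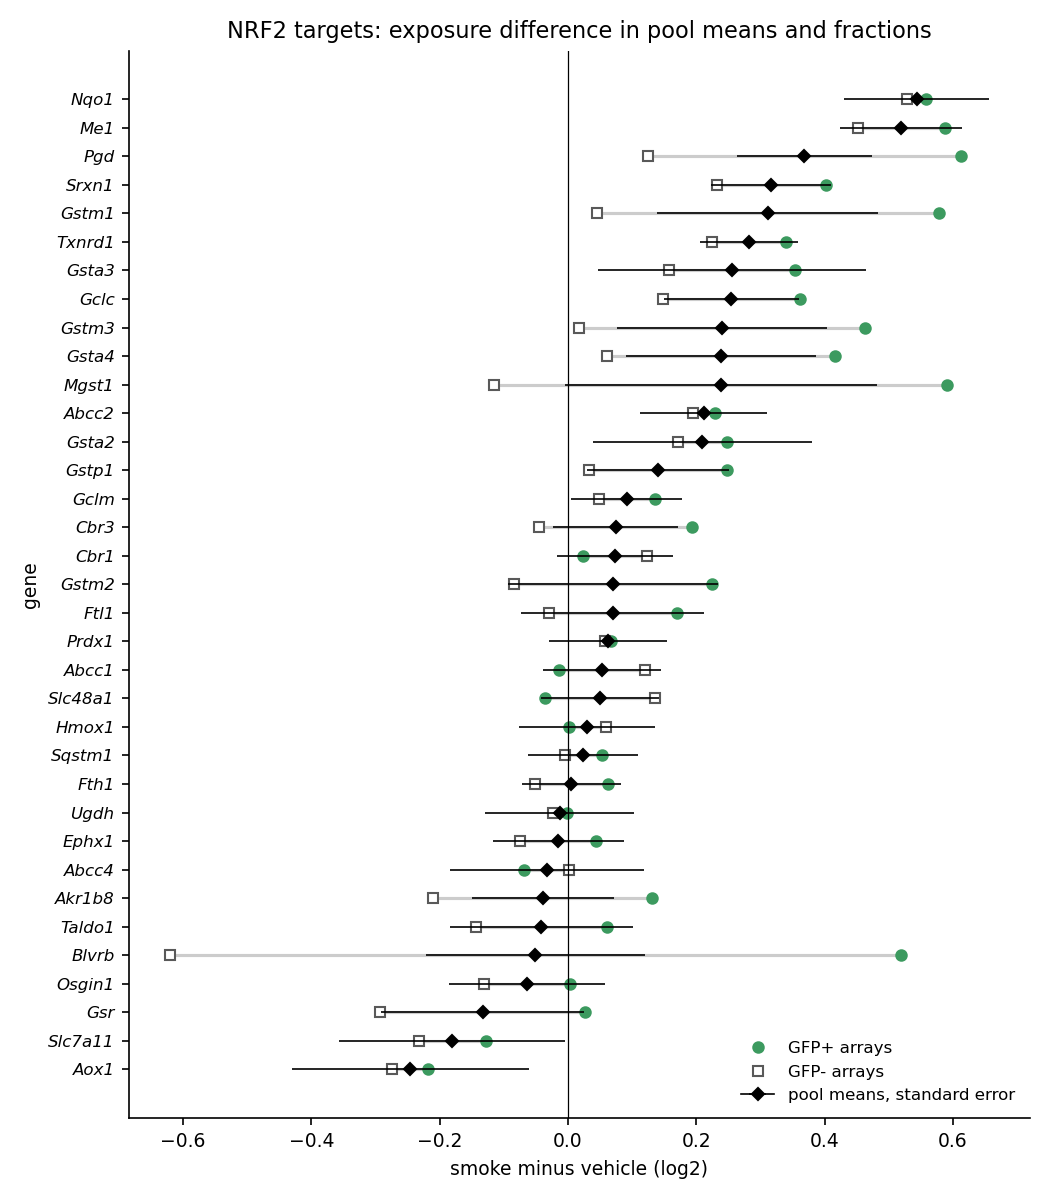
Smoke minus vehicle (log2) for the 35 measured NRF2 targets, sorted by the pool-mean difference; diamonds are pool means with their standard error, filled circles GFP+ arrays and open squares GFP- arrays. Nqo1 and Me1 lie at the top, at 0.54 and 0.52, and Hmox1 and Gclm lie near 0.

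No member of the related enzyme lists passed over all genes. Of 12 NADPH-supplying enzymes, 4 were higher at an unadjusted p under 0.05 (33.3%, against 2.32% of all genes), namely Me1, Pgd, Aldh1l1 and Mthfd1, and the median was 0.07. Without smoke pools 2 and 4 the 4 became 2. The glutathione and thioredoxin list (25 measured) had 3 higher (12%, against 2.32%), 1 lower (4%, against 1.79%) and a median of -0.01. Srxn1 and Txnrd1 are counted in this list as well as in the NRF2 list. Me1 and Pgd likewise count in both the NADPH and the NRF2 list, so the shares of these lists are not separate results. The xenobiotic enzymes (25 measured) had 0 higher and 0 lower with a median of 0.11, made of 0.24 in GFP+ and -0.05 in GFP- cells. The iron and haem list (20 measured) had a median of -0.06.

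Sustentacular cells carry many xenobiotic enzymes, so their marker list is given beside these values. Its median was 0.36 in GFP+ and -0.10 in GFP- cells, and 0.11 in pool means (16 measured, 0 at an unadjusted p under 0.05). Without smoke pools 2 and 4 its pool-mean median was -0.13 and that of the NRF2 list 0.03, with 5 NRF2 members higher at an unadjusted p under 0.05. The xenobiotic median turned to -0.04 without those pools and was 0.04 with the sustentacular list mean as a covariate. Those pools are the highest on the sustentacular list, so the lower median of that list without them was set in advance. The xenobiotic and sustentacular lists share their highest member (0.35), so neither setting is an independent check of the xenobiotic median. Pir differed by 0.90 without those pools and by 0.88 with that covariate. Under the same covariate Nqo1 differed by 0.53.

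Aryl hydrocarbon receptor targets, which respond to the aromatic hydrocarbons of smoke, showed no member at an unadjusted p under 0.05 in either direction among 10 measured. Their median was -0.01. Nqo1 is counted in the NRF2 list and not among these 10, so its rise does not enter these counts. Cyp1a1 and Cyp1b1, both classic targets, lay at or below the vomeronasal level in both exposures and differed by 0.03 and -0.07. Cyp1a2 was brighter, with overlapping pool means of 9.91 to 10.99 in smoke and 10.06 to 10.52 in vehicle. Its mean was 10.18 in smoke against 9.83 in vehicle in GFP+ arrays, and 10.70 against 10.82 in GFP- arrays. Ahrr, the repressor of the receptor, differed by 0.17 (SE 0.140), and Tiparp by -0.16 (SE 0.0989).

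S100a5 and Sema7a, 2 of 8 listed genes that follow the activity of olfactory neurons, had exposures that did not overlap in either fraction, and none of the 8 passed over all genes. S100a5 had pool means of 16.60, 16.16, 16.51 and 16.51 in smoke and 15.65, 15.90, 15.95 and 15.90 in vehicle. The exposures did not overlap in the pool means or in either fraction. The difference was 0.59 (SE 0.117, 95% interval 0.33 to 0.85, adjusted p = 0.264, exact two-sided permutation p = 0.0286), made of 0.56 in GFP+ and 0.62 in GFP- cells. The fractions differed by -0.07 (95% interval -0.42 to 0.29). With values above 16 set to 16 the S100a5 difference was 0.30, and without pool 1 of both exposures it was 0.47.

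Sema7a, a semaphorin of olfactory axons, had pool means of 13.90, 13.48, 13.78 and 13.89 in smoke and 13.25, 13.42, 13.13 and 13.39 in vehicle. The lowest smoke pool lay just above the highest vehicle pool, and the difference was 0.46 (SE 0.116, adjusted p = 0.623), with 0.47 in GFP+ and 0.46 in GFP- cells. Pcp4l1, a small neuronal protein of the PCP4 family, differed by 0.33 (SE 0.123, adjusted p = 1.00). These 3 were the members of 8 activity-raised genes with an unadjusted p under 0.05 (37.5% higher, against 2.32% of all genes), and the list median was 0.13, with 0.33 in GFP+ and 0.08 in GFP- cells. Kirrel2, an adhesion molecule of olfactory axons whose expression is known to follow activity, differed by -0.55 with wide scatter (SE 0.447), at -0.60 in GFP+ and -0.51 in GFP- cells. The 4 activity-lowered genes had a median of -0.03 and the 21 transduction genes 0.02, with 0 members at an unadjusted p under 0.05 in either list.

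Pcdh10, a protocadherin of axon sorting, showed one of the largest differences outside the receptor families. Its pool means were 11.42, 10.30, 10.75 and 10.04 in smoke and 9.46, 9.59, 8.96 and 8.99 in vehicle. Every smoke pool was above every vehicle pool, but the smoke pools spread widely (SD 0.603). The difference was 1.38 (SE 0.270, adjusted p = 0.251), at 1.04 in GFP+ and 1.71 in GFP- cells. Camk2n1, an inhibitor of the calcium- and calmodulin-dependent kinase CaMKII, differed by 0.41 (SE 0.103, adjusted p = 0.623), at 0.34 and 0.48.

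Non-overlap in both fractions at once, a criterion added after values were seen, was met by 11 genes higher in smoke (0.0564%) and 8 lower (0.041%). Opposite directions were met by 18 genes higher in GFP+ and lower in GFP- cells (0.0923%) and by 2 the other way (0.0103%). The 11 higher genes were Pir, Pcdh10, S100a5, Nqo1, Camk2n1, Sema7a, Txnrd1, Ubtf, Olfr1444, Cldn34b3 and Ttll2. Cldn34b3 and Ttll2 lay at or below the vomeronasal level in both exposures. Ubtf, a factor of ribosomal RNA transcription, differed by 0.17 (SE 0.0824). Of the 8 lower genes 5 were odorant receptors, 2 (Ppp1r14d and Fscn2) lay at or below the vomeronasal level, and the last was Ppp3ca, the calcineurin catalytic subunit, at -0.24 (SE 0.0831).

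**Figure D4:**
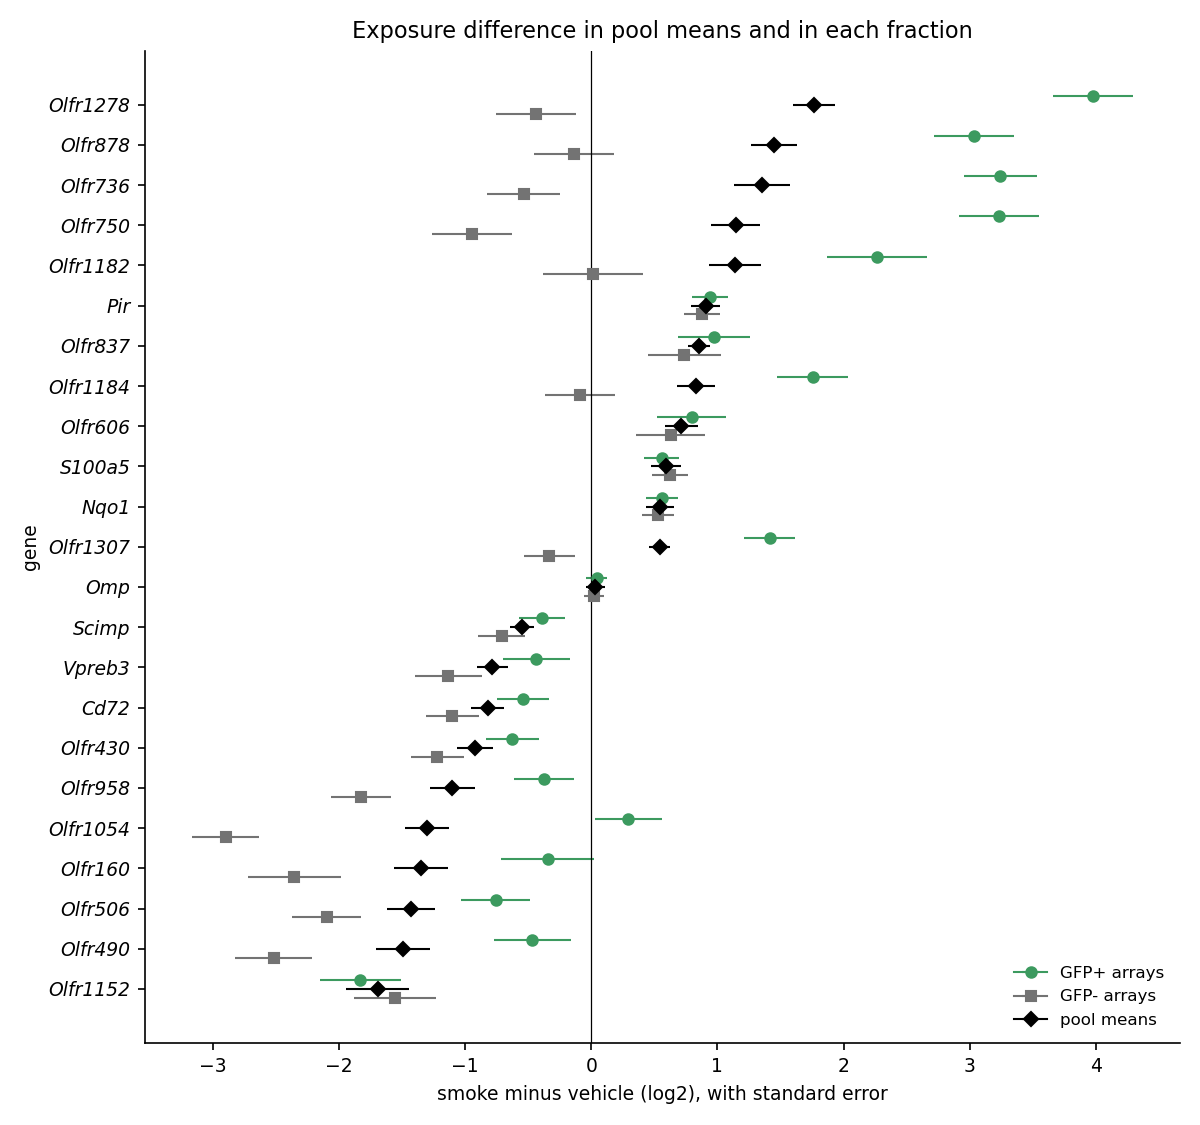
Smoke minus vehicle (log2, with standard error) of the 10 higher and 10 lower genes chosen by the smallest p among those whose pool means did not overlap, with Nqo1, S100a5 and Omp; diamonds are pool means, circles GFP+ arrays and squares GFP- arrays. The 3 symbols coincide for Pir, Nqo1 and S100a5, and lie far apart for Olfr1278, Olfr878, Olfr736 and Olfr1054.

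Odorant receptors held the largest difference of the averaged comparison in each direction, 1.77 and -1.69. Other genes also differed by more than 1, among them Pcdh10 (1.38) and Bpifb9b of the gland list (-1.02, with overlapping pools). The 1091 measured receptors had 2 past the threshold, 107 higher (9.81%, against 2.32% of all genes) and 62 lower (5.68%, against 1.79%) at an unadjusted p under 0.05, and a median of 0.05. Without pool 1 of both exposures the balance turned, to 75 higher and 98 lower with a median of -0.0023. In that setting 736 of 19505 genes had an unadjusted p under 0.05, and the median of all genes was 0.0072. The turn was not particular to odorant receptors, as the vomeronasal list went from 10 higher and 4 lower to 4 higher and 12 lower. Probe sequences were not used here, so signal shared between near-identical receptors cannot be told apart. Olfr837 had pool means of 8.37, 8.26, 8.33 and 8.24 in smoke and 7.34, 7.58, 7.37 and 7.49 in vehicle. It rose by 0.86 (SE 0.0875, 95% interval 0.66 to 1.05, adjusted p = 0.0143), at 0.97 in GFP+ and 0.74 in GFP- cells. The pool means were tight (SD 0.0599 and 0.109), whereas the separate arrays overlapped in both fractions. Its GFP+ arrays read 8.22, 8.73, 8.93 and 8.27 in smoke and 7.28, 8.43, 7.43 and 7.11 in vehicle. Fitted to 16 arrays with the pool as a random block, Olfr837 had an adjusted p of 0.513.

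Olfr1278, in contrast, rested on 1 fraction. Its pool means were 10.67, 10.71, 10.52 and 10.45 in smoke and 8.43, 8.82, 8.70 and 9.33 in vehicle, a rise of 1.77 (SE 0.168, adjusted p = 0.0143). In GFP+ arrays it read 10.75, 11.48, 11.19 and 10.70 after smoke and 6.08, 7.01, 6.94 and 8.19 after vehicle. In GFP- arrays the exposures overlapped, at 10.59, 9.94, 9.85 and 10.19 against 10.78, 10.62, 10.46 and 10.47 (difference -0.44). The fractions' changes differed by 4.42 (95% interval 3.35 to 5.48, adjusted p = 0.00651). Both Olfr1278 and Olfr837 lost their calls without smoke pool 1 (adjusted p = 0.0854 each), smoke pool 2 (0.0753 each) and vehicle pool 3 (0.0534 each). Without smoke pool 3 they stood at 0.0669 and 0.0875, and without vehicle pool 1 Olfr837 stood at 0.0655 while Olfr1278 kept its call (0.0293).

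Several other receptors that led the averaged comparison had the same shape as Olfr1278. Olfr878 differed by 1.45 in pool means (adjusted p = 0.0555), made of 3.03 in GFP+ and -0.14 in GFP- cells. Olfr736 differed by 1.35 (adjusted p = 0.113), made of 3.24 and -0.54, and Olfr750 by 1.14 (adjusted p = 0.143), made of 3.23 and -0.95. Olfr1182 (1.14), Olfr1184 (0.83) and Olfr1307 (0.54) had GFP+ differences of 2.27, 1.75 and 1.41 and GFP- differences of 0.01, -0.09 and -0.33. Olfr1054 was the counterpart on the low side, with -1.30 in pool means (adjusted p = 0.0591), made of 0.29 in GFP+ and -2.90 in GFP- cells. Its GFP- smoke arrays read 6.10, 4.79, 5.22 and 5.88, below the vomeronasal level of pool means, so the size of these differences is uncertain. Olfr160 (-1.35) and Olfr958 (-1.10) also took most of their difference from GFP- cells, at -2.35 and -1.82. The GFP- smoke mean of Olfr160 was 5.23, also below that level, with the same limit on its size.

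The test of unequal change between fractions was passed by 34 genes with the GFP+ change above the GFP- change (0.174%) and by 1 the other way, Olfr518 (0.00513%); 1516 genes had an unadjusted p under 0.05 (7.77%). Of these 35 genes, 32 were odorant receptors and 3 were trace amine receptors, Taar2, Taar7d and Taar7f. No other gene passed. In 34 of the 35 the GFP+ change was above 0 and the GFP- change below 0, with medians of 1.32 and -1.05. Averaging the fractions left a median of 0.09 (range -1.30 to 1.77), and only 1 of the 35, Olfr1278, passed in pool means. Olfr488 had the largest inequality, 4.49 (adjusted p = 0.00298), with 1.15 in GFP+ and -3.34 in GFP- cells and -1.10 in pool means.

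A smaller set of receptors was lower in both fractions after smoke. Olfr1152 had pool means of 8.04, 8.38, 7.51 and 8.21 in smoke and 9.53, 9.11, 10.05 and 10.23 in vehicle, a difference of -1.69 (SE 0.251, adjusted p = 0.103). It was lower by like amounts, -1.83 in GFP+ and -1.56 in GFP- cells, and the fractions' difference was -0.27 (95% interval -0.97 to 0.42). No smoke array of either fraction reached a vehicle array of the same fraction. Olfr506 had pool means of 9.53, 8.71, 9.33 and 9.05 in smoke and 10.85, 10.63, 10.70 and 10.15 in vehicle (-1.43, SE 0.192, adjusted p = 0.0591). Its difference was -0.76 in GFP+ and -2.10 in GFP- cells.

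Olfr490 (-1.49, adjusted p = 0.0983), Olfr430 (-0.92, adjusted p = 0.113) and Olfr849 (-0.92, adjusted p = 0.224) completed the 5 receptors with no overlap in either fraction. Their GFP+ differences were -0.47, -0.62 and -0.73, and their GFP- differences -2.52, -1.22 and -1.10. The GFP- smoke arrays of Olfr490 read 4.18, 3.62, 4.79 and 5.40, below the vomeronasal level, so the size of its difference is uncertain too. On the high side only Olfr1444 met the same criterion (0.55, SE 0.123, adjusted p = 0.435), with 0.49 and 0.61. Its GFP- means of 6.13 and 5.51 lay below the vomeronasal level of pool means. Olfr606 differed by 0.71 (adjusted p = 0.211), at 0.80 and 0.63, from a vehicle mean of 5.62 that is below the vomeronasal level.

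Outside the receptor families, Vpreb3, Cd72 and Scimp were among the 10 genes with the smallest p on the low side, and none of them passed over all genes. Vpreb3, a surrogate light chain partner of developing B cells, had pool means of 7.21, 7.02, 7.45 and 6.88 in smoke and 7.95, 8.03, 7.80 and 7.91 in vehicle (-0.78, SE 0.125, adjusted p = 0.113). Cd72, a B cell surface co-receptor, had pool means of 8.76, 9.20, 9.17 and 9.0 in smoke and 9.94, 9.64, 9.74 and 10.09 in vehicle (-0.82, SE 0.132, adjusted p = 0.113). Neither gene's pools overlapped between exposures. Vpreb3 differed by -0.43 in GFP+ arrays, where it read 5.01 to 5.93, and by -1.13 in GFP- arrays, where it read 8.35 to 10.38. Cd72 differed by -0.54 and -1.10.

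Other genes known from B cells, chosen after values were seen and not a fixed list, did not pass either. Ms4a1, which encodes CD20, differed by -0.64 (SE 0.162, adjusted p = 0.658), and Pou2af1, a B cell transcriptional co-activator, by -0.66 (SE 0.15, adjusted p = 0.459). Cd79a and Cd79b, the signalling chains of the B cell receptor, differed by -0.27 (SE 0.145) and -0.49 (SE 0.177), and Cd79a was at 0.07 in GFP+ arrays. Blk, a B cell kinase, and Cd22, an inhibitory receptor, differed by -0.14 (SE 0.155) and -0.25 (SE 0.219), and Blk was at 0.14 in GFP+ arrays. Fcrla, an Fc receptor-like gene of B cells, differed by -0.68 (SE 0.217). Scimp, an adaptor of antigen-presenting cells, differed by -0.55 (adjusted p = 0.211), with pool means below the vomeronasal level. The immune list (21 measured) had 0 members higher and 3 lower at an unadjusted p under 0.05, and 3 above 0 (14.3%, against 51.3% of all genes). The 3 lower were 14.3% of the list, against 1.79% of all genes. Its median was -0.18, with -0.05 in GFP+ and -0.27 in GFP- cells, and its mean per pool overlapped between exposures, at 9.60 to 10.12 in smoke and 9.77 to 10.32 in vehicle. The part of immune cell number in these differences was not tested.

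No gene of the stress and damage lists passed over all genes. Cdkn1a, the p21 cell cycle inhibitor, had pool means of 14.55, 14.40, 14.38 and 13.98 in smoke and 13.90, 13.93, 13.92 and 13.86 in vehicle, without overlap (0.43, SE 0.118, adjusted p = 0.822). It was the only one of 17 p53 and apoptosis genes at an unadjusted p under 0.05 (5.88%, against 2.32% of all genes higher). The median of that list was -0.04. The unfolded protein list (18 measured) had a median of 0.02 and the heat shock list (10 measured) 0.03. Immediate early genes (25 measured) had a median of -0.02 and 1 member at an unadjusted p under 0.05, Nr4a1 at -0.32 (4%, against 1.79%). Inflammation genes (20 measured) had a median of -0.20. Of these, 1 was higher, Cxcl1 at 0.25 (5%, against 2.32% of all genes), and 1 lower, Ccl5 at -0.52 (5%, against 1.79%). Cxcl1 lay below the vomeronasal level in every pool mean, at 5.45 to 5.73 in smoke and 5.11 to 5.49 in vehicle.

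No member of the remaining cell type and housekeeping lists passed either. Ribosomal proteins (65 measured) had a median of -0.06, made of 0.07 in GFP+ and -0.19 in GFP- cells, and oxidative phosphorylation (97 measured) 0.02. Mature and immature neuron lists had medians of 0.03 and 0.05. Medians were -0.03 for globose basal cells, -0.06 for microvillar cells and ionocytes, -0.15 for glands and respiratory epithelium, 0.02 for ensheathing glia and -0.10 for endothelial and stromal cells. Circadian genes had a median of -0.05. All 9 horizontal basal markers lay at or below the vomeronasal level, as did 304 of 321 vomeronasal receptors in both exposures. The 2 measured red blood cell genes had a median of -0.46 and the 3 sex-linked genes 0.21. Of 14 trace amine receptors, 3 were higher (21.4%, against 2.32%) and 1 lower (7.14%, against 1.79%) at an unadjusted p under 0.05, with a median of 0.10 and none past the threshold. Without smoke pools 2 and 4 there were 1 higher and 1 lower.

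**Figure D5:**
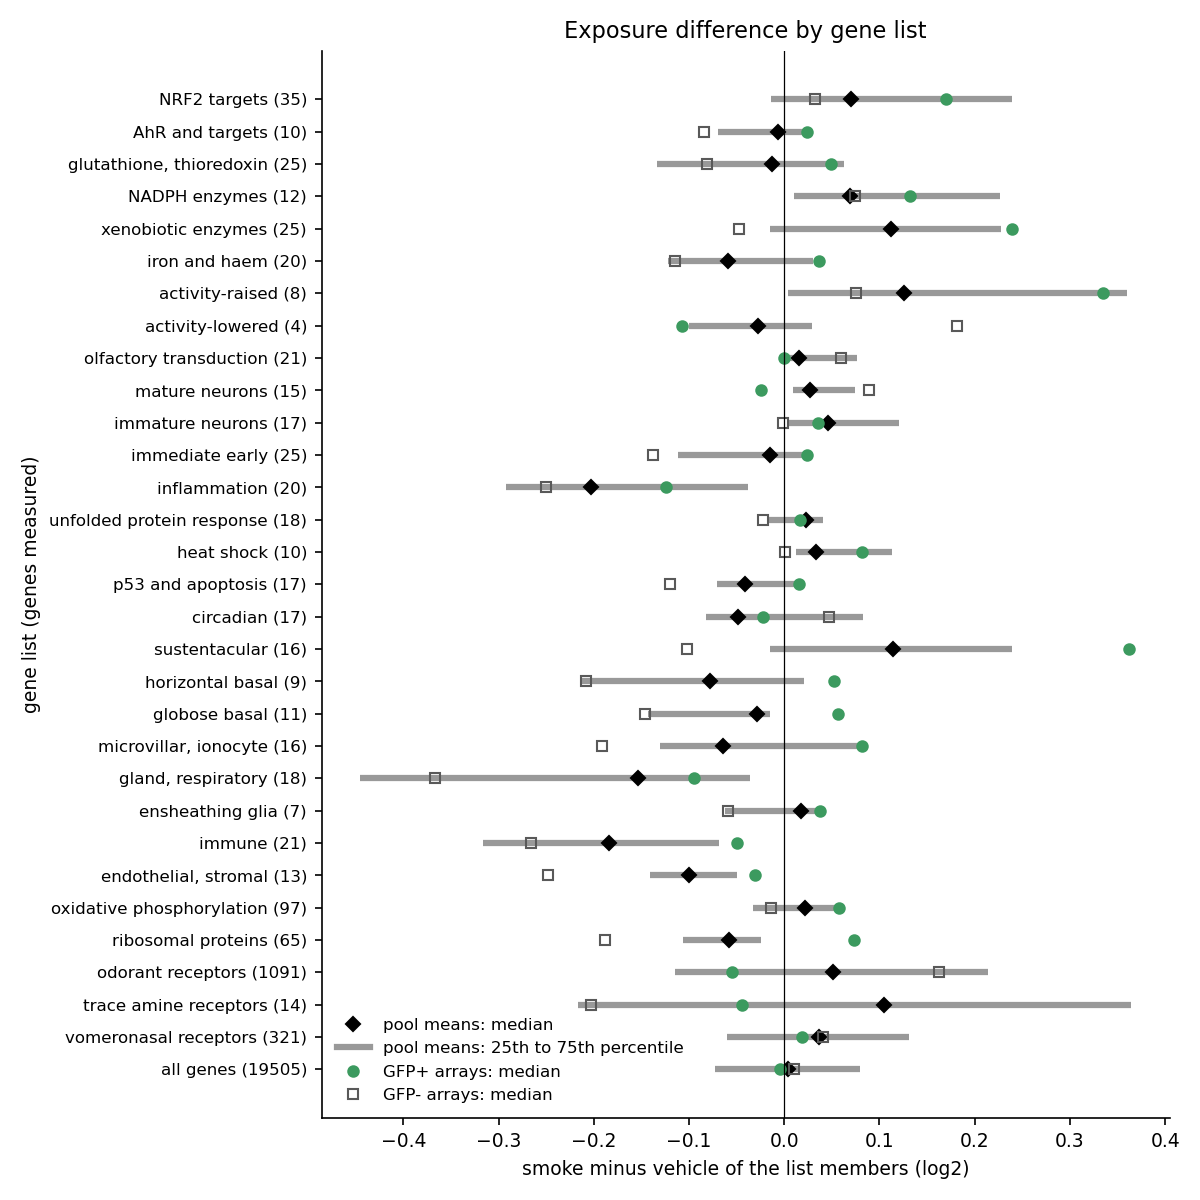
Median smoke minus vehicle difference (log2) of each gene list, with the number of genes measured in parentheses; diamonds are medians of pool means, bars run from the 25th to the 75th percentile, circles are GFP+ medians and squares GFP- medians. The NRF2 and activity-raised lists have pool-mean medians of 0.07 and 0.13, the immune list -0.18, and all genes 0.00.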

How the data were processed

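Expression was measured on 16 Clariom S arrays. The deposited values are on a log2 scale, and the submitters' processing notes name Affymetrix Expression Console; its version, its algorithm and the annotation build of the array: not given in the sources used here. Where the design text mentions a different odorant, the sample titles, all of which say smoke, were used. Of 28846 probe sets, 19572 carried 1 gene symbol, 2634 carried none and 6640 were controls. The brightest probe set represented each gene, leaving 19505.

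GFP+ and GFP- values of a pool were averaged, and smoke and vehicle pools (4 each) were compared with limma 3.58.1 (lmFit, eBayes) in R 4.3.3, two-sided, with Benjamini-Hochberg adjustment over all genes and a threshold of 0.05. The GFP+ minus GFP- difference of each pool was tested likewise. Changes within fractions came from 1 fit to 16 arrays with 4 groups. The fits were tested on simulated data with independent noise and shifts larger than those of Pir, Nqo1 and S100a5. Shifts of the size of these genes were not examined. Lists are described by counts and medians only. The members, lists and tests were chosen with earlier results of these data known.

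Genes named were Pir, Nqo1, S100a5 and Omp, those past the threshold, genes with the smallest p among non-overlapping pools up to 10 each way, the leading members of each list, and the 5 most unequal between fractions each way; others are members of counted groups or were chosen after their values were seen. Same-numbered smoke and vehicle pools had residual correlations of 0.187, 0.0545, 0.0993 and 0.136, not all above 0.1, and were not treated as pairs. The Y-linked gene Kdm5d did follow the number. Its means in pools 1 to 4 were 4.93, 8.49, 9.55 and 8.57 for smoke and 4.98, 8.75, 9.32 and 8.73 for vehicle. A pairing by number therefore cannot be set aside, and with the number as a block 0 genes passed. Replicates are different pools of mice; precision is set by their number. Alternatives covered the model, filter, normalization, ceiling, covariate, probe set rule and left-out pools. Testing all non-control probe sets, and the criterion of non-overlap in both fractions, were added after the data were seen. Promoter sequences are RefSeq's (GRCm38.p6); 15691 of 19505 genes matched. Figures used Python 3.11.15 and matplotlib 3.10.9.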

Additional observations from a re-analysis of the deposited data

Results flagged for a closer look

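In 15 of 182 groups of 4 pool means (named genes by exposure), 1 pool stood apart by Dixon's criterion, which chance meets in about 1 of 20 groups. Vehicle pool 1 was low for Bag3 (7.04), S100a5 (15.6), Olfr878 (10.2), Eif2s3y (4.16) and Uty (3.85), and high for Olfr849 (11.6). Smoke pool 1 was low for Uty (5.05). Smoke pool 4 was low for Olfr1182 (9.56) and high for Taar4 (8.95) and Omp (18.2). Vehicle pool 2 was low for Gsta4 (8.34) and high for Olfr1184 (9.91). Vehicle pool 3 was low for Taar3 (7.70), and vehicle pool 4 was high for Scimp (5.56) and Tiparp (9.97).

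The smoke difference was unequal in the fractions for 35 receptor genes by limma (GFP+ minus GFP- change, log2). Values above 4 were those of Olfr488 (4.49), Olfr1278 (4.42), Olfr1137 (4.19) and Olfr750 (4.18). Values of 3 to 4 were those of Olfr736 (3.78), Olfr484 (3.59), Taar2 (3.58), Olfr1054 (3.19), Olfr878 (3.17) and Olfr153 (3.03). Values of 2 to 3 were those of Olfr894 (2.97), Olfr1047 (2.91), Olfr1313 (2.88), Olfr16 (2.86), Olfr923 (2.84), Olfr1496 (2.63), Olfr360 (2.50), Olfr1056 (2.45), Olfr247 (2.37), Taar7d (2.30), Olfr1032 (2.29), Olfr1090 (2.22), Taar7f (2.18), Olfr1280 (2.14) and Olfr777 (2.11). Smaller ones were those of Olfr982 (1.90), Olfr1087 (1.88), Olfr1489 (1.84), Olfr699 (1.83), Olfr819 (1.81), Olfr1366 (1.73), Olfr1257 (1.66), Olfr1276 (1.15) and Olfr294 (1.06). Olfr518 was the 1 gene with a signed GFP+ change below its GFP- change (-1.63). Olfr1032, Olfr1054, Olfr1137, Olfr294 and Olfr518 had at least 1 GFP- group mean below the lowest vomeronasal level of a pool mean (6.15), so the size of their values is uncertain.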

How the results depend on the processing

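Of the pool-mean calls (2 higher, 0 lower), the number higher was 7 with 16 arrays and the pool as a random block, 4 with a trended and robust prior, with arrays centred on their medians, with the sustentacular covariate or at an adjusted p of 0.10, 1 with values capped at 16, and 0 with the replicate block, without pool 1 of both exposures or without smoke pools 2 and 4. The number lower was 6 with the random block, 2 with the trended prior and 3 at 0.10. Leaving out single pools gave 0 to 4 higher (0 without smoke pool 1, 2 or 3 or vehicle pool 3) and 0 to 2 lower. The replicate block left 977 genes at an unadjusted p under 0.05. Pir passed at 0.91 with the random block (adjusted p = 0.00356), the trended prior (0.0239) and median centring (0.0435), and its adjusted p over all alternatives ran from 0.00356 to 0.272. Nqo1 (0.54) and S100a5 (0.59) passed with the random block only (adjusted p = 0.0424 each), with ranges of 0.0424 to 1.00 and 0.0424 to 0.997. The random block fit took the correlation of the fractions of a pool as 0.12 for every gene. Genes whose signed change in GFP+ cells was above that in GFP- cells numbered 34, and 17 to 34 with single pools left out (17 without smoke pool 2, 21 without smoke pool 4 or vehicle pool 2). The 1 the other way became 0 with the replicate block or trended prior, 2 after quantile normalization, 3 at 0.10 and 0 to 2 with single pools left out. The causes were not tested.

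Genes whose sign turned had not passed under any alternative. Without pool 1 of both exposures Bst2 was 0.031, Kirrel3 -0.020, Eif2s3y -0.19 and Uty -0.12. Without smoke pools 2 and 4 Cyp2g1 was -0.040, Frzb 0.081, Eif2s3y -0.61 and Uty -1.04, and with the covariate Eif2s3y was -0.24 and Uty -0.47. With single pools left out, Atf3 ran from -0.0085 to 0.19, Cdh19 from -0.18 to 0.018, Kirrel3 from -0.018 to 0.19, Top2a from -0.30 to 0.014, Eif2s3y from -1.56 to 1.75 and Uty from -1.66 to 1.75. The array values carry no depth, and differences of genes above 16 or near the vomeronasal level are the least certain.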
